A study of Mus musculus with 23 samples.

Results

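The cell cycle and proliferation genes described here were 47 of the 18876 genes counted in RNA of CD11b+ cells from the hippocampus of female mice. They were chosen by name, from a list of genes that act in the cell cycle, and all 47 listed symbols were present in the count table. By the phase in which their products act, 19 were set down as S phase members, 26 as G2/M members, and 2, the G1 cyclin *Ccnd1* and the microtubule regulator *Stmn1*, as neither. All mice were *Slc11a2* fl/fl;*Cx3cr1*Cre-ERT2+/- on a mixed 129S;C57BL/6J background and were either hemizygous for APP/PS1, a transgene pair that drives amyloid deposition, or WT littermates. At 5 to 6 months of age, Slc11a2KD mice were gavaged daily with 4 mg tamoxifen for 5 days. Control mice, which carried the same floxed gene and Cre, had only the corn oil, and effects of the drug and of the knockdown cannot be told apart. Cells were collected at 15 to 18 months by the labels, and the study's text gives a slightly narrower range. Recombination was driven from *Cx3cr1*, a gene of microglia and other myeloid cells. The groups were Control WT (n = 6), Control APP/PS1 (n = 6, without library 10), Slc11a2KD WT (n = 5) and Slc11a2KD APP/PS1 (n = 5).

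Cells duplicate their DNA in S phase and divide it in mitosis, and the genes for each step are switched on in waves. E2F factors, released from the retinoblastoma proteins when cyclin D and cyclin E kinases act, drive genes of replication such as those of the MCM helicase, while the genes of mitosis are driven later through CHR and CCAAT elements by the MuvB complex with B-MYB and FOXM1. Microglia divide slowly in the healthy adult brain and can proliferate around amyloid plaques. Many S phase products, PCNA and the MCM proteins among them, also serve DNA repair or persist outside of S phase, whereas most G2/M transcripts are scarce in resting cells.

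Motifs of these programs were searched in the promoters that RefSeq gives on build GRCm38.p6, each spanning 250 bases before to 50 after a gene's start. Of the 47 members, 37 matched. E2F elements were searched as TTCCCGC or TTCGCGC or TTGCCGC or TTGGCGC, the CHR as TTTGAA and the CCAAT box by its letters, each on both strands, and a TTGGCGC read on the other strand can overlap a CCAAT. An E2F match stood in 10 of 16 S phase promoters (62.5%), in 4 of 21 G2/M promoters and in 9.69% of all 27025 genes with a promoter. The CHR showed the opposite split, in 16 of 21 G2/M promoters (76.2%) and 2 of 16 S phase promoters (12.5%), against 18.1% of all. CCAAT stood in 90.5% of the G2/M, 68.8% of the S phase and 37.9% of all promoters, and CHR and CCAAT together in 76.2%, 12.5% and 7.12%. A match is a description of the letters and was not tested for binding.

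The 200 bases before the start are shown for 8 members that matched, ones on which results below turn and *Mcm6* as an MCM gene with E2F matches. *Ccna2*, *Aurkb*, *Mcm4* and *Ccnd1*, called below, had no promoter to show. Capitals mark the E2F, CHR and CCAAT matches in the 8 stretches. The first 4 are G2/M members and the last 4 are S phase members.
Cdk1, chr10:69352913-69353112, minus strand: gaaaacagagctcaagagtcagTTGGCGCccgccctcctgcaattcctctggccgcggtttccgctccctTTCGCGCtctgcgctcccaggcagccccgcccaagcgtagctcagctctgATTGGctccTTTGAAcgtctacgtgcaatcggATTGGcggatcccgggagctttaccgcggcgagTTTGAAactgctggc
Ccnb1, chr13:100786487-100786686, minus strand: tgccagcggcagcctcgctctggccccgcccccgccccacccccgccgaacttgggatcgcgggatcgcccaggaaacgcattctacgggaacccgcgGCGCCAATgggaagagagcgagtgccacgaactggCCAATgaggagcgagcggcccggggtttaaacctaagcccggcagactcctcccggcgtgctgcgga
Ccnb2, chr9:70421555-70421754, minus strand: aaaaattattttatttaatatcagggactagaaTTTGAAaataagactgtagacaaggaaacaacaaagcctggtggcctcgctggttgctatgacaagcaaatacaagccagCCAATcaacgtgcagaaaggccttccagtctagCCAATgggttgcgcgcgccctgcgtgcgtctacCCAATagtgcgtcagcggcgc
Top2a, chr11:99024190-99024389, minus strand: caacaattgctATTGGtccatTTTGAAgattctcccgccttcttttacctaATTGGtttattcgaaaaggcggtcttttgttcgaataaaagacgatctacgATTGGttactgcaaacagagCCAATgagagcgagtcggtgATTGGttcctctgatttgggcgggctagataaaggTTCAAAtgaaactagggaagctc
Pcna, chr2:132253181-132253380, minus strand: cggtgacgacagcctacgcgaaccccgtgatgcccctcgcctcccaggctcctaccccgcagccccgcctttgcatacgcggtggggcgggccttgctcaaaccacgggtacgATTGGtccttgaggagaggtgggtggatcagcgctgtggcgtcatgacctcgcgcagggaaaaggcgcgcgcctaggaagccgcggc
Tyms, chr5:30073626-30073825, minus strand: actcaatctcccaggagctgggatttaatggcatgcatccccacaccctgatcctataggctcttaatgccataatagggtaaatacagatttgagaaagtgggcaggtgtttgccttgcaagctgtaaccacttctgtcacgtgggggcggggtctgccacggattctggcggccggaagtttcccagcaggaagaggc
Mcm2, chr6:88898781-88898980, minus strand: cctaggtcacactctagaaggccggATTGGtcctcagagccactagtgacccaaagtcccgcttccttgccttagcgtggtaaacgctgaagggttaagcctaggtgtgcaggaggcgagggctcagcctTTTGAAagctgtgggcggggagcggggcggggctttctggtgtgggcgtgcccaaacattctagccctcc
Mcm6, chr1:128359706-128359905, minus strand: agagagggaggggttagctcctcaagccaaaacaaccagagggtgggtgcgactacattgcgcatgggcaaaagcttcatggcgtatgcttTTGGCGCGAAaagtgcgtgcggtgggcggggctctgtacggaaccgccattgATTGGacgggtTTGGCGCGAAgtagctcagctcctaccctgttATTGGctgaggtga
*Cdk1* held 2 E2F matches, 2 CHR and 2 CCAAT in this stretch, and *Top2a* held 2 CHR and 5 CCAAT. In *Ccnb1* the E2F match, which begins 102 bases before the start on the other strand, overlaps the CCAAT that follows it. *Mcm6* carried 4 E2F matches, in 2 overlapping pairs, while *Tyms* had none of the motifs in it and *Pcna* had 1 CCAAT. *Mcm2*, an S phase member, carried 1 CHR 70 bases before the start and 1 CCAAT but no E2F match.

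The members were expressed at low levels in most libraries. Divided by the length of the canonical transcript, 27 of the 47 had a mean above 1 CPM per kb over the 22 libraries. *Pcna*, the sliding clamp of DNA polymerase, led with 129 CPM per kb, followed by *Ccnd1* with 59.7 and *Stmn1* with 27.3. *Hmgb2*, a chromatin protein, had 14.5 CPM per kb and *Mcm3* 11.2, both also made outside of division in many cells. At the other end were *Mki67*, the Ki-67 antigen, with 0.0717 CPM per kb and the kinetochore motor gene *Cenpe* with 0.0400. Between 0 and 6 members had no count in a library, with 6 in Slc11a2KD APP/PS1 library 23 and 3 or fewer in the others. *Pcna* alone made up 43.2% of the summed S phase CPM.

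Total counts per library ran from 31128643 to 54872491. Gene totals of *Slc11a2* were 26.8 to 37.7 CPM in the samples labelled Slc11a2KD WT and 29.6 to 43.3 CPM in Control WT, and 37.4 to 74.4 CPM in those labelled Slc11a2KD APP/PS1 and 39.6 to 47.8 CPM in Control APP/PS1. The ranges overlapped within each genotype, with log2 fold changes of -0.04 (standard error 0.14, adjusted p = 1, edgeR) in WT and 0.39 (standard error 0.14, adjusted p = 0.205) in APP/PS1 mice. A gene total also counts reads outside the floxed exons and so does not check the knockdown, and reads over those exons were not analysed here. The 5 microglia markers summed to between 25978 and 40119 CPM in every library used, and markers of newborn neurons (*Sox11* and *Eomes*) reached at most 0.644 CPM. Library numbers 5 to 17 were Control and 1 to 4 and 18 to 23 were Slc11a2KD samples, and 4 of 5 Slc11a2KD APP/PS1 but 2 of 5 Slc11a2KD WT libraries carried 18 to 23. Nothing in the labels says what the numbers stand for, or that libraries were made in batches.

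The first question was whether S phase and G2/M members stood at different levels in the 4 groups. Each list was summarised in a library by its mean log2 CPM. In Control WT the G2/M mean was 0.81 ± 0.19 (SD, n = 6) and in Control APP/PS1 1.48 ± 0.43 (SD, n = 6). The lowest Control APP/PS1 library, 16, stood at 0.83 and overlapped the Control WT libraries, which ran from 0.55 to 1.02, while libraries 5, 13 and 7 led with 2.01, 1.85 and 1.61. In Slc11a2KD WT the libraries 1, 2, 3, 19 and 22 had 1.60, 1.12, 0.45, 1.11 and 0.24, and in Slc11a2KD APP/PS1 the libraries 4, 18, 20, 21 and 23 had 1.55, 1.34, 1.06, 1.22 and 0.10. By this mean these 2 groups overlapped over nearly their whole range. The S phase mean was 2.90 ± 0.21 in Control WT and 3.26 ± 0.12 in Control APP/PS1 (SD, n = 6 each), with ranges of 2.71 to 3.18 and 3.08 to 3.41. It was 3.09, 3.20, 2.77, 3.32 and 2.98 in the Slc11a2KD WT and 3.28, 3.19, 3.38, 2.73 and 3.43 in the Slc11a2KD APP/PS1 libraries. Within the Slc11a2KD APP/PS1 group, library 23 had the highest S phase and the lowest G2/M mean, and library 21 the lowest S phase mean. In library 23, 6 members, all of G2/M, had no count, and each entered the mean at the floor set by the prior count. The mean log2 CPM weighs all members of a list alike, and the summed CPM, which the abundant members dominate, gave another order. Summed CPM of G2/M was 79.4 to 123 in Control WT and 101 to 151 in Control APP/PS1, and 72.6 to 137 in Slc11a2KD WT and 120 to 198 in Slc11a2KD APP/PS1, where libraries 20 and 21 lay above every Slc11a2KD WT library. The 5 Slc11a2KD APP/PS1 libraries averaged 142 ± 31.9 CPM (SD) and the 6 of Control APP/PS1 133 ± 20.5 CPM, the reverse of their order by mean log2 CPM. Library 23, at 131, stood above libraries 4 and 18, at 120 and 123. For S phase the sums were 366 to 429 in Control WT and 455 to 486 in Control APP/PS1, without overlap, and 358 to 512 and 419 to 598 in the Slc11a2KD groups, with library 21, at 521, above libraries 4 and 18. *Pcna*, which made up 43.2% of the S phase sum, itself averaged 101 CPM per kb in Control WT and 136 in Control APP/PS1. No p-value is given for these means and sums, because they are scores over the chosen members. In bulk RNA, fewer dividing cells and less RNA of these genes per cell cannot be told apart.

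**Figure D1:**
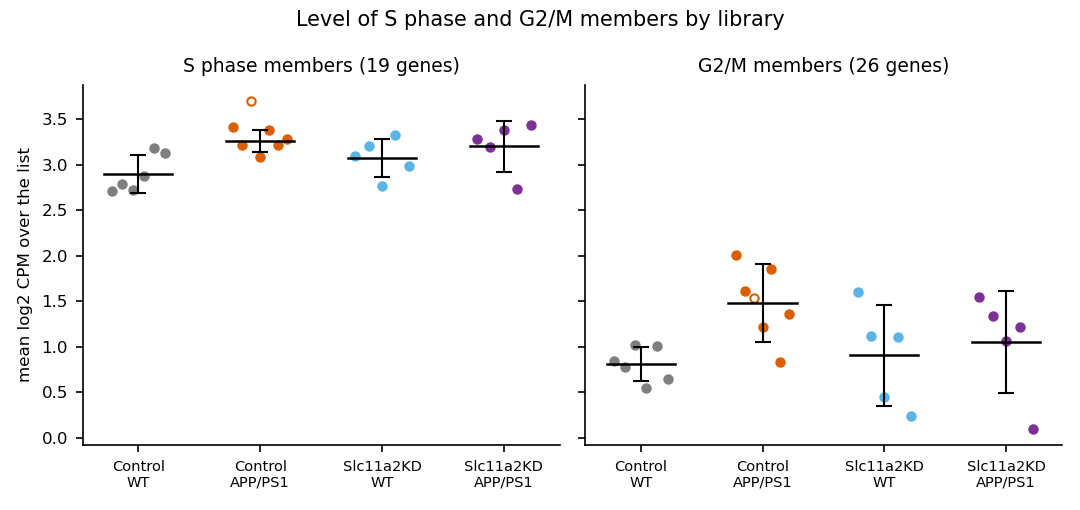
Mean log2 CPM over the 19 S phase members (left) and the 26 G2/M members (right) in each library, by group. Points are libraries, bars are the mean and SD without library 10, which is drawn as an open circle. G2/M means lie between 0.55 and 1.02 in Control WT and between 0.83 and 2.01 in Control APP/PS1, and the Slc11a2KD groups overlap.

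Control APP/PS1 was compared with Control WT to ask which members differ with the APP/PS1 transgenes in mice given corn oil. The fold changes of 24 of the 26 G2/M members were above 0, with a median log2 fold change of 0.67, and those of 16 of the 19 S phase members, with a median of 0.26. Over all 18759 genes tested, 48.2% were above 0 and the median was -0.02. Past an adjusted p of 0.05 (edgeR's quasi-likelihood test, Benjamini-Hochberg adjustment over all genes tested), 3 members, all of G2/M, were higher (6.38% of 47), where 5.99% of all genes were, and 0 were lower, where 4.48% of all genes were. In this fit the share called higher was near that of all genes. In other fits it fell on either side. It was below that of all genes with DESeq2's size factors in edgeR (4.26%, against 5.39%), above a log2 fold change of 1 (2.13%, against 2.80%) and in 8 of the 12 fits that each left out 1 library, and above it with DESeq2, with limma voom and with library 10 kept. DESeq2 called 5 members higher (10.6%, against 7.64% of all genes to which it gave an adjusted p, the base of its shares here) and 1 lower (2.13%, against 8.06%). With limma voom 11 were higher (23.4%, against 11.1%) and 1 lower (2.13%, against 7.15%). With library 10 kept in the group, edgeR called 8 higher (17.02%, against 6.59%) and 0 lower (4.69% of all genes). At an unadjusted p under 0.05, edgeR had 13 members higher (27.7%, against 13.3% of all genes) and 14 in either direction (29.8%, against 24.3%). By ranges, the Control groups did not overlap for *Ccna2*, *Birc5* and *Pcna*, all higher (6.38%, against 5.33% of all genes), and for 0 members that were lower, against 3.03%.

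*Ccna2*, cyclin A2, which partners CDK2 in S phase and CDK1 at the entry to mitosis, had the lowest adjusted p of the members here. It ran from 3.196 to 6.002 CPM (median 4.59) in Control WT and from 6.65 to 10.1 CPM (median 8.36) in Control APP/PS1, with no overlap. Its log2 fold change of 0.83 ± 0.22 (SE) with an adjusted p of 0.0147 (edgeR) passed in all 12 fits that each left out 1 library. *Cdk1*, the kinase that starts mitosis, had 5.28 to 14.6 CPM (median 6.27) in Control WT and 12.1 to 22.9 CPM (median 13.98) in Control APP/PS1, where library 15 was the one Control WT library inside the range of the other group. Its log2 fold change of 0.97 ± 0.29 (SE) with an adjusted p of 0.0321 (edgeR) passed in 7 of 12 such fits and was lost without library 6, 8, 9, 12 or 13, with the largest adjusted p at 0.0957. *Ccnb2*, a cyclin B, went from 0.807 to 3.04 CPM (median 1.98) to 2.87 to 6.11 CPM (median 4.72), and library 8 of Control WT overlapped library 16 of Control APP/PS1. With a log2 fold change of 1.33 ± 0.43 (SE) with an adjusted p of 0.0475 (edgeR), the call held in 3 of 12 such fits, those without library 8, 14 or 16, and reached at most 0.105 in the others. Of these 3 calls, that of *Cdk1* was also lost once the trend of each library on transcript length and GC content was removed (0.92, adjusted p = 0.0604), and that of *Ccnb2* with DESeq2's size factors in edgeR (1.29, adjusted p = 0.0567).

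The other genes of mitotic entry had fold changes above 0 and did not pass in the main edgeR fit, of 22 libraries from all 4 groups with no covariate. *Birc5* and *Ube2c* passed with DESeq2, limma voom and library 10 kept, *Ube2c* also with at least 10 counts in every library or without library 8 or 16, and *Aurkb* with limma voom. *Ccnb1*, the main cyclin B, had 1.68 to 4.597 CPM (median 3.65) in Control WT and 3.49 to 6.84 CPM (median 5.603) in Control APP/PS1 (log2 fold change 0.58 ± 0.38 SE, adjusted p of 0.388 in edgeR). *Aurkb*, the kinase of the chromosomal passenger complex, had 1.34 to 3.87 CPM (median 2.496) and 3.48 to 4.88 CPM (median 4.34) (log2 fold change 0.69 ± 0.31 SE, adjusted p of 0.168 in edgeR). *Birc5*, the survivin subunit of that complex, had 0.243 to 2.65 CPM (median 1.86) and 3 to 4.81 CPM (median 4.06), without overlap (log2 fold change 1.16 ± 0.42 SE, adjusted p of 0.0805 in edgeR). *Ube2c* and *Cdc20*, which act in the anaphase-promoting complex, had log2 fold changes of 1.03 and 0.67 with adjusted p-values of 0.0651 and 0.145 (edgeR). *Plk1*, *Foxm1* and *Aurka* were at 0.60, 0.58 and 0.08.

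Among genes of the spindle, kinetochore and cytokinesis, the fold changes were mostly positive with wide errors. *Prc1*, which bundles microtubules of the central spindle, had 1.23 to 2.11 CPM (median 1.54) in Control WT and 1.74 to 4.902 CPM (median 3.095) in Control APP/PS1 (log2 fold change 1.02 ± 0.42 SE, adjusted p of 0.124 in edgeR). It passed with only the Control groups fitted. *Cdca8* (borealin), *Kif20a*, *Tpx2*, *Kif11* and *Nusap1* had log2 fold changes from 0.68 to 1.09, none past the threshold. *Ect2* and *Bub1b* were at 0.59 and 0.52. *Bub1* and *Cenpe* were at 0.18 and 0.05, and *Cenpf* and *Kif23*, the 2 G2/M members below 0, at -0.15 and -0.16.

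*Mki67* and *Top2a*, genes often used to mark dividing cells, were not called. *Mki67* had 0.250 to 1.46 CPM (median 0.666) in Control WT and 0.0189 to 2.37 CPM (median 0.664) in Control APP/PS1. The log2 fold change of 0.13 ± 0.97 (SE) with an adjusted p of 0.966 (edgeR) covers both a fall and a rise, and with library 5 left out the value was -0.54. *Top2a*, the topoisomerase that untangles sister chromosomes, had 1.61 to 5.15 CPM (median 2.600) and 0.982 to 8.66 CPM (median 5.89), where library 16 lay below every Control WT library (log2 fold change 0.91 ± 0.67 SE, adjusted p of 0.456 in edgeR). *Hmgb2*, the most abundant G2/M member in CPM, stood at 0.04 (standard error 0.20).

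No S phase member passed in this comparison in the main edgeR fit or with DESeq2. With limma voom 5 of 19 did, *E2f1*, *Pcna*, *Rrm2*, *Tyms* and *Uhrf1*, where 11.1% of all genes were higher. With library 10 kept 3 did, *E2f1*, *Pcna* and *Tyms* (6.59% of all genes). With only the Control groups 3 did, *E2f1*, *Pcna* and *Uhrf1* (11.3%), and with libraries 18 to 23 as a covariate 2, *E2f1* and *Pcna* (8.42%). The others called 0 or 1, *Pcna* with the length and GC trend removed (6.19%) and *Tyms* without library 15 (5.17%). *Pcna* was tight in Control WT, at 143 to 161 CPM (median 153), and higher in all Control APP/PS1 libraries, at 179.7 to 228 CPM (median 205). Even so its log2 fold change of 0.43 ± 0.17 (SE) with an adjusted p of 0.12 (edgeR) did not pass in the main fit. With only the Control groups fitted the adjusted p was 0.000609, and with libraries 18 to 23 as a covariate 0.00747 (edgeR). The reason for this difference was not tested. *Tyms*, thymidylate synthase, had 5.69 to 14.96 CPM (median 8.64) and 9.86 to 17.4 CPM (median 14.3) (log2 fold change 0.60 ± 0.23 SE, adjusted p of 0.105 in edgeR). *Uhrf1*, which carries methylation to new DNA, *Rrm2*, the regulated subunit of ribonucleotide reductase, and *E2f1* had log2 fold changes of 1.14, 0.74 and 0.69, and *Ccne1*, *Pclaf* and *Cdc6* of 0.85, 0.73 and 0.70, none past the threshold in the main edgeR fit. The 6 subunits of the MCM helicase lay between -0.26 and 0.21, with *Mcm2* at 15.7 to 21.6 CPM (median 17.99) in Control WT and 11.4 to 20.9 CPM (median 14.5) in Control APP/PS1 (log2 fold change -0.26 ± 0.19 SE, adjusted p of 0.439 in edgeR). *Cdc45*, which joins the MCM ring to form the active helicase, was the lowest member with 1.68 to 5.36 CPM (median 3.38) and 1.95 to 3.08 CPM (median 2.41) (log2 fold change -0.51 ± 0.30 SE, adjusted p of 0.331 in edgeR).

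*Ccnd1*, cyclin D1, had 195 to 288 CPM (median 261) in Control WT, with library 6 lowest, and 166 to 258 CPM (median 194) in Control APP/PS1, where library 16 was highest and the others overlapped only library 6 of Control WT. A log2 fold change of -0.35 ± 0.13 (SE) with an adjusted p of 0.0913 (edgeR) missed the threshold, and DESeq2 gave -0.38 with an adjusted p of 0.0234, limma voom 0.0332 and the fit with the length and GC trend removed 0.0274. *Stmn1* stood at -0.09 (standard error 0.23).

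**Figure D2:**
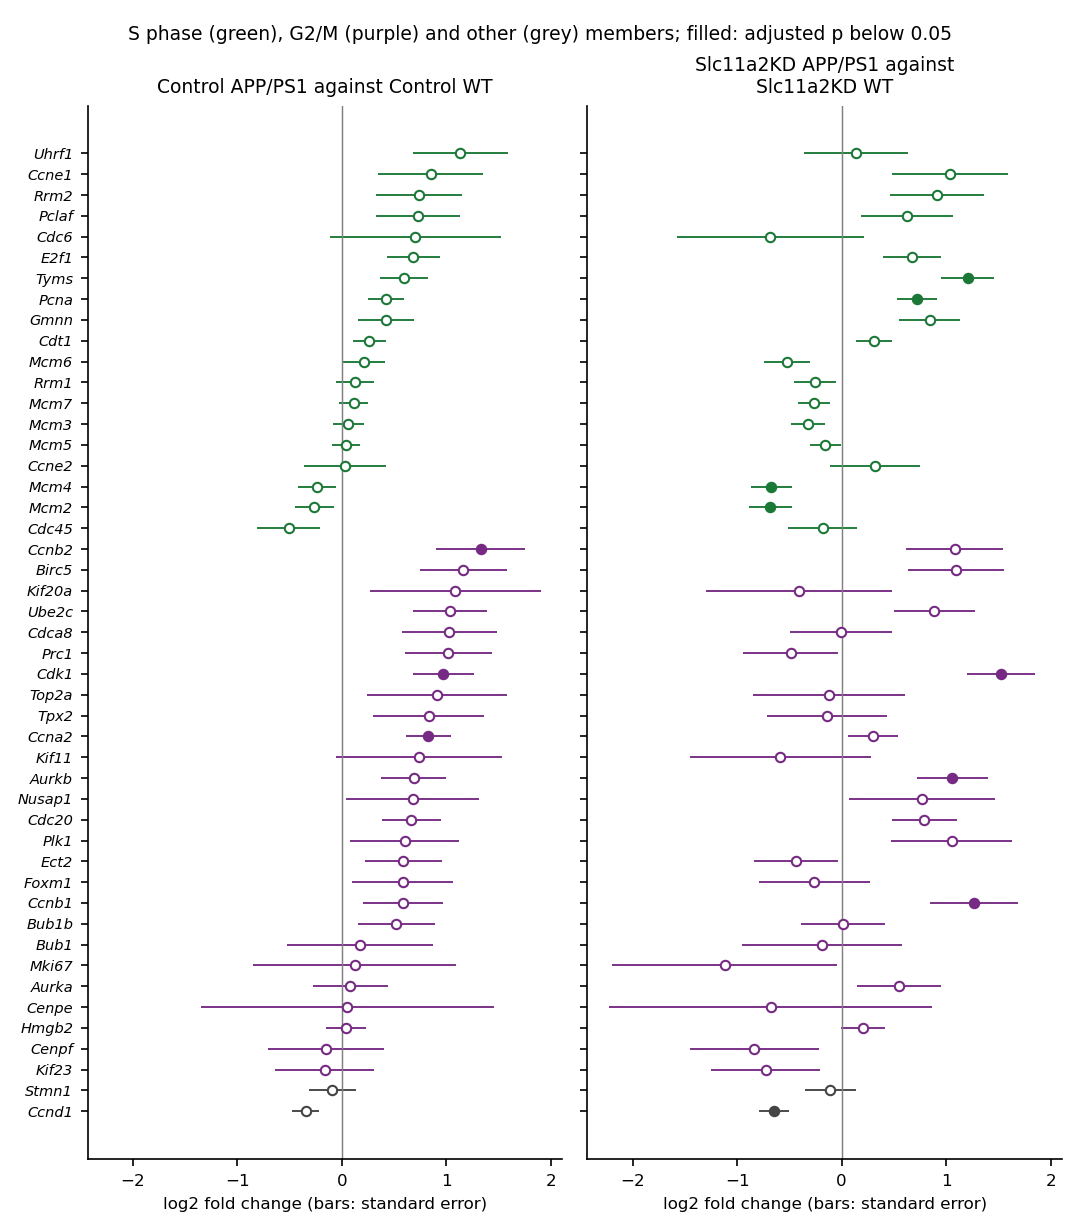
Log2 fold change of each of the 47 members in Control APP/PS1 against Control WT (left) and in Slc11a2KD APP/PS1 against Slc11a2KD WT (right), with standard errors as bars. Green marks S phase, purple G2/M and grey other members, and filled points passed an adjusted p of 0.05 (edgeR). On the left 24 of 26 G2/M points lie above 0, and on the right 13 of 26 do.

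Slc11a2KD APP/PS1 was set against Slc11a2KD WT to ask the same of the tamoxifen-treated mice. Here 5 members were higher (10.6% of 47, against 9.77% of all genes) and 3 were lower (6.38%, against 6.41%), so both shares were again near those of all genes. Of the higher members, *Cdk1*, *Ccnb1* and *Aurkb* are G2/M and *Tyms* and *Pcna* S phase members. The lower members were *Mcm2*, *Mcm4* and *Ccnd1*. The G2/M members had a median log2 fold change of 0.01, with 13 of 26 above 0, and the S phase members of 0.14, with 10 of 19 above 0, against a median of -0.07 over all genes. The 2 groups did not overlap for *Cdk1*, *Aurkb* and *Tyms*, which were higher (6.38%, against 4.18% of all genes), and for *Ccnd1* and *Mcm2*, which were lower (4.26%, against 2.88%). DESeq2 gave 46 members an adjusted p and called 8 higher (17.39%, against 16.4% of all genes) and 3 lower (6.52%, against 13.3%), and limma voom 6 higher (12.77%, against 13.2%) and 3 lower (6.38%, against 10.4%). With only libraries 18 to 23 of these groups, 4 against 2, 0 of 46 members passed, where 1.68% of all genes were higher and 0.410% lower. With those numbers as a covariate *Cdk1* and *Tyms* were higher (4.26%, against 5.98% of all genes) and *Ccnd1* lower (2.13%, against 3.48%). In the lists below, values are in the order of libraries 1, 2, 3, 19 and 22 for Slc11a2KD WT and of 4, 18, 20, 21 and 23 for Slc11a2KD APP/PS1.

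*Cdk1* had 9.77, 6.07, 3.12, 10.5 and 7.26 CPM in Slc11a2KD WT and 12.6, 18.3, 18.6, 34.7 and 21.8 CPM in Slc11a2KD APP/PS1. Every library of the second group was above every library of the first, and library 21 was the highest. Its log2 fold change of 1.53 ± 0.32 (SE) with an adjusted p of 0.00231 (edgeR) passed in all 10 fits that left out 1 library, and within libraries 18 to 23 it was 1.39 (adjusted p = 0.0792). *Ccnb1* had 5.14, 0.664, 1.22, 4.93 and 3.86 CPM in Slc11a2KD WT and 5.09, 5.47, 8.83, 10.2 and 8.57 CPM in Slc11a2KD APP/PS1. Library 1 of the first group reached the lowest of the second, and libraries 2 and 3 were far below the rest. Its call, at a log2 fold change of 1.27 ± 0.42 (SE) with an adjusted p of 0.0419 (edgeR), was lost without library 2, 3, 20, 21 or 23. It was also lost with library 10 kept (adjusted p = 0.0555, edgeR) and without libraries 4 and 21 (adjusted p = 0.072). *Aurkb* had 2.95, 2.35, 2.105, 3.99 and 0.754 CPM and 4.96, 4.03, 6.13, 5.26 and 4.94 CPM in the 2 groups, which did not overlap though library 19 came close to library 18. The call, at a log2 fold change of 1.06 ± 0.34 (SE) with an adjusted p of 0.036 (edgeR), was lost without library 2, 3, 20, 21 or 23 and with the length and GC trend removed (adjusted p = 0.104). It was also lost without libraries 4 and 21 (adjusted p = 0.0751, edgeR).

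*Ccna2* and *Ccnb2*, called between the Control groups, were not called here. *Ccna2* had 7.93, 6.42, 4.86, 8.78 and 4.43 CPM in Slc11a2KD WT and 7.13, 8.47, 10.9, 8.39 and 5.07 CPM in Slc11a2KD APP/PS1, with wide overlap (log2 fold change 0.30 ± 0.24 SE, adjusted p of 0.423 in edgeR). *Ccnb2* had 4.86, 1.99, 0.468, 3.89 and 3.46 CPM and 3.74, 3.403, 6.02, 8.13 and 9.88 CPM, where the first group ran from library 3 at the bottom to library 1 (log2 fold change 1.08 ± 0.46 SE, adjusted p of 0.111 in edgeR). *Plk1*, *Birc5*, *Ube2c* and *Cdc20* had log2 fold changes of 1.05, 1.10, 0.89 and 0.79, with adjusted p-values from 0.0849 to 0.216 (edgeR). *Birc5* passed with DESeq2 and without library 19. *Cdc20* passed with DESeq2, with at least 10 counts in every library and without library 4. *Plk1* and *Ube2c* passed in no alternative.

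*Mki67* had 0.944, 2.25, 0.260, 0.725 and 0.401 CPM in Slc11a2KD WT and 1.07, 0.254, 0, 0.763 and 0 CPM in Slc11a2KD APP/PS1, with no count in libraries 20 and 23 (log2 fold change -1.12 ± 1.08 SE, adjusted p of 0.529 in edgeR). The value was -3.43 with limma voom (adjusted p = 0.0692) and -3.31 without libraries 4 and 21 (adjusted p = 0.102). *Top2a* had 6.46, 3.603, 1.95, 2.49 and 0.330 CPM and 4.797, 2.58, 4.16, 2.08 and 0 CPM, with no count in library 23 (log2 fold change -0.12 ± 0.73 SE, adjusted p of 0.941 in edgeR). Its sign turned with the setting, to 0.64 within libraries 18 to 23. *Cenpf*, a kinetochore gene, was the lowest of the members with a mean of at least 1 CPM, with 2.19, 1.16, 1.33, 0.677 and 0.424 CPM in Slc11a2KD WT and 1.34, 0.391, 0.135, 1.07 and 0.287 CPM in Slc11a2KD APP/PS1 (log2 fold change -0.84 ± 0.62 SE, adjusted p of 0.383 in edgeR). The groups overlapped, and without libraries 4 and 21 the value was -2.08 (adjusted p = 0.0456).

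*Tyms* had 6.54, 9.91, 7.75, 10.7 and 8.62 CPM in Slc11a2KD WT and 13.8, 12.5, 26.9, 26.5 and 20.99 CPM in Slc11a2KD APP/PS1, with no overlap. Its log2 fold change of 1.21 ± 0.26 (SE) with an adjusted p of 0.00231 (edgeR) passed in all 10 fits without 1 library, and was 1.16 within libraries 18 to 23 (adjusted p = 0.15). *Pcna* had 146, 127, 113, 172 and 252 CPM and 156, 213, 316, 333 and 318 CPM. Libraries 20, 21 and 23 were above every Slc11a2KD WT library, while libraries 4 and 18 lay within the Slc11a2KD WT range, below library 22. A log2 fold change of 0.72 ± 0.19 (SE) with an adjusted p of 0.0107 (edgeR) passed in all 10 such fits, was 0.41 with library numbers 18 to 23 as a covariate (adjusted p = 0.0507), and was 0.47 within those libraries (adjusted p = 0.453). With the length and GC trend removed it was 0.36 (adjusted p = 0.0148).

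Fold changes of the MCM helicase had the other sign. All 6 subunit genes had log2 fold changes below 0, from -0.68 to -0.16, and with the length and GC trend removed 5 did, with *Mcm5* at 0.06 and *Mcm3* at -0.12. *Mcm2* had 22.7, 24.03, 17.7, 17.6 and 18.1 CPM in Slc11a2KD WT and 15.1, 13.8, 13.02, 5.796 and 14.9 CPM in Slc11a2KD APP/PS1, with library 21 far below the rest and no overlap (log2 fold change -0.68 ± 0.21 SE, adjusted p of 0.0247 in edgeR). The call was lost without library 1 or 2. *Mcm4* had 20.7, 20.4, 18.4, 13.8 and 15.7 CPM and 15.8, 14.2, 11.2, 6.23 and 8.41 CPM, overlapping through libraries 4, 18, 19 and 22 (log2 fold change -0.67 ± 0.20 SE, adjusted p of 0.0231 in edgeR). It was lost without library 1, 2, 21 or 23. The licensing factors *Cdt1* and *Gmnn*, the latter the inhibitor of the former, stood at 0.31 and 0.84 (adjusted p = 0.0507 for *Gmnn*, edgeR). *E2f1*, *Rrm2* and *Ccne1* had log2 fold changes of 0.68, 0.91 and 1.04, not past the threshold in the main edgeR fit. *E2f1* passed with limma voom and in edgeR without library 4 or 19.

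*Ccnd1* had 299, 283, 269, 268 and 253 CPM in Slc11a2KD WT and 203, 185, 163, 118 and 206 CPM in Slc11a2KD APP/PS1, so every Slc11a2KD APP/PS1 library was lower. Its log2 fold change of -0.65 ± 0.14 (SE) with an adjusted p of 0.00295 (edgeR) passed in all 10 fits without 1 library and kept its size within libraries 18 to 23, at -0.64 (adjusted p = 0.228). *Stmn1* was at -0.11 (standard error 0.25).

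**Figure D3:**
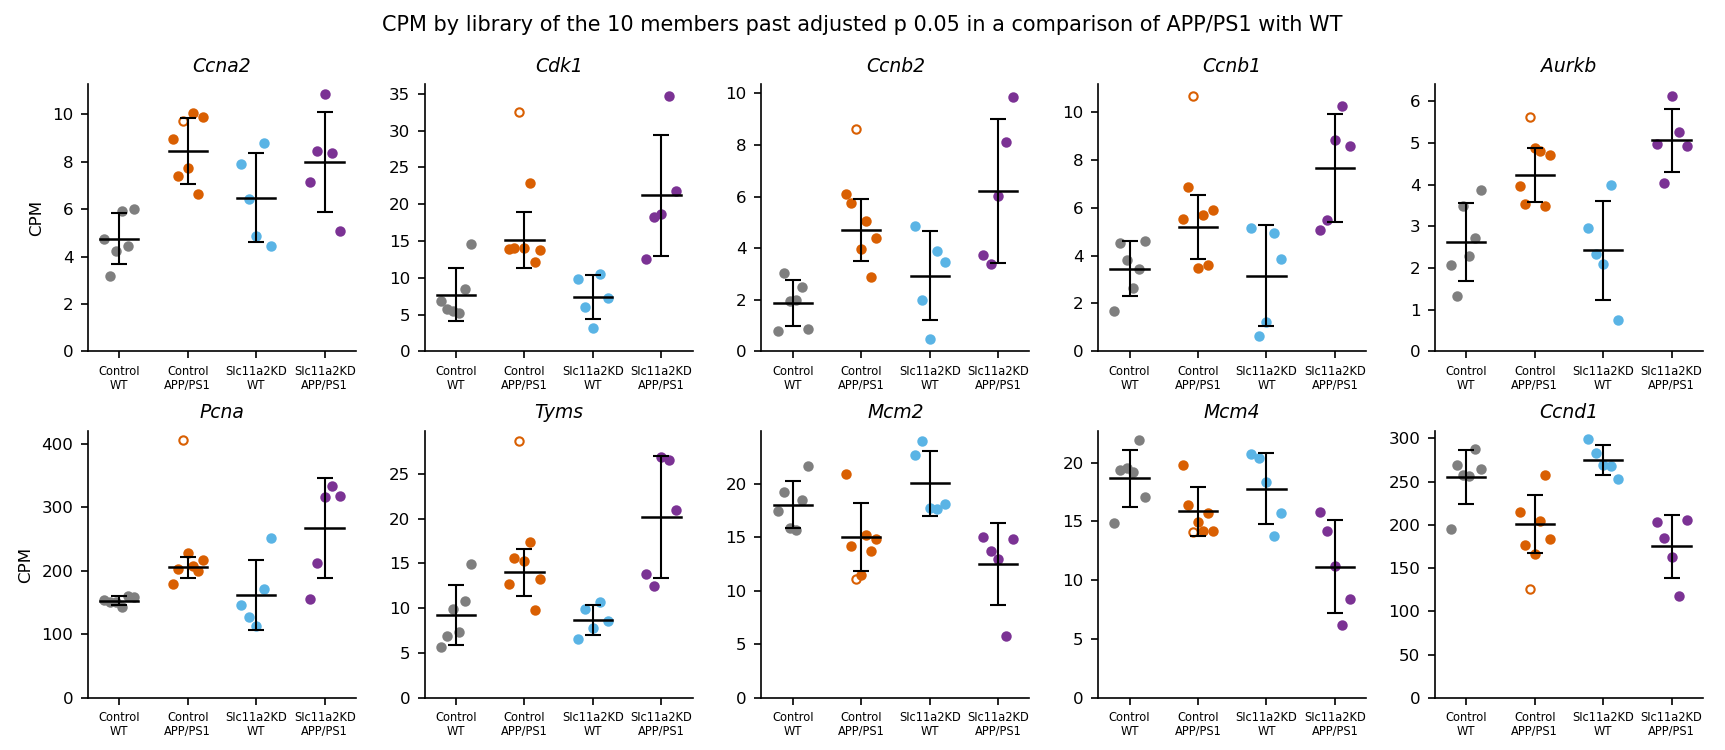
CPM in each library, by group, of the 10 members past an adjusted p of 0.05 in Control APP/PS1 against Control WT or in Slc11a2KD APP/PS1 against Slc11a2KD WT. Points are libraries, open circles library 10, and bars the mean and SD without it. *Cdk1* and *Tyms* of Slc11a2KD APP/PS1 lie above all Slc11a2KD WT points, *Ccnd1* and *Mcm2* below them.

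In both comparisons of APP/PS1 with WT, the fold changes of the members went with the length of their transcripts. Between Slc11a2KD WT and Control WT they did not (Spearman's correlation -0.05 across the 47 members). In Slc11a2KD APP/PS1 against Slc11a2KD WT, 7 of the 9 members whose canonical transcript is under 2 kb were above 0, with a median of 0.84, and 3 of the 17 over 4 kb, with a median of -0.32. The exceptions over 4 kb include *Cdk1*, at 4375 bases. Spearman's correlation of the log2 fold change with transcript length was -0.63 across the 47 members and -0.30 across the 18615 genes with a length, in the same libraries and given as a description. In Control APP/PS1 against Control WT it was -0.32 across members and -0.09 across genes, and 15 of the 17 longest members were above 0. With each library's trend on length and GC content removed, an alternative chosen after these values were seen, the members' correlation in the Slc11a2KD comparison was -0.40. That fit kept *Cdk1*, *Tyms*, *Pcna*, *Ccnb1*, *Mcm2*, *Mcm4* and *Ccnd1* past the threshold and lost *Aurkb*, so that 8.51% of the members were higher (7.93% of all genes) and 6.38% lower (6.70%). In the Control comparison it left 22 of 26 G2/M and 13 of 19 S phase members above 0, with medians of 0.63 and 0.16, and called *Ccna2*, *Ccnb2* and *Pcna* higher (6.38%, against 6.19% of all genes) and *Ccnd1* lower (2.13%, against 7.23%). In the Slc11a2KD comparison the medians in that fit were 0.10 for G2/M and 0.15 for S phase members. The correction also removes any true difference that goes with length.

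**Figure D4:**
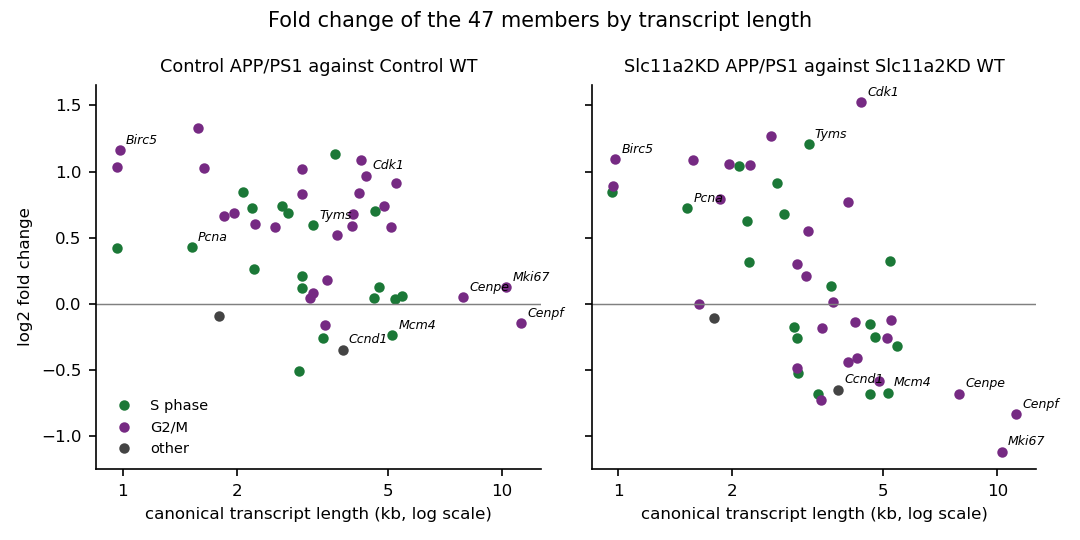
Log2 fold change of the 47 members against the length of the canonical transcript (kb, log scale) in both comparisons of APP/PS1 with WT, with S phase members in green, G2/M in purple and others in grey. The points slope down more on the right, with a Spearman correlation of -0.63, than on the left, with -0.32.

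Markers of other cells differed between groups as well. In Control APP/PS1 the summed CPM of 8 neutrophil and granulocyte precursor markers was 17.2 to 89.2, against 85.4 to 310 in Control WT, and that of 6 B and plasma cell markers 11.3 to 17.6 against 12.7 to 76.9. The 6 choroid plexus markers summed to 0.982 to 5.34 CPM (median 1.76) in Control APP/PS1 and 1.08 to 1883 CPM (median 5.09) in Control WT. Of the Control WT libraries, only 12 and 15 had counts of the choroid plexus gene *Ttr*. The 5 oligodendrocyte precursor markers summed to 5.53 to 50.2 CPM in Control APP/PS1 and 2.25 to 10.4 CPM in Control WT. Of these 5, 2 had fold changes above 0, and their median was -1.42. Most of the sum was *Cspg4* (log2 fold change 2.81 ± 0.58 SE, adjusted p of 0.00187 in edgeR), which had 30.4, 47.9 and 42.1 CPM in libraries 5, 13 and 7, the 3 with the highest G2/M means, while *Pdgfra*, *Olig2* and *Gpr17* stayed at or below 0.702 CPM in every library. *Olig1*, also on that list, had 0.666 to 4.304 CPM in Control WT and 0.159 to 1.61 CPM in Control APP/PS1 (log2 fold change -1.42 ± 0.59 SE, adjusted p of 0.13 in edgeR). In the Slc11a2KD comparison *Cspg4* was at 3.39 (adjusted p = 0.0011) and 1 of the 5 was above 0. The sums of the 5 microglia markers were 25978 to 29873 CPM in Control APP/PS1 and 34571 to 39553 CPM in Control WT, and 28749 to 32699 and 35299 to 40119 CPM in Slc11a2KD APP/PS1 and Slc11a2KD WT. Neither pair overlapped, and 3 and 4 of the 5 were lower past the threshold. In Slc11a2KD APP/PS1 and Slc11a2KD WT, the neutrophil list summed to 38.9 to 137 and 95.3 to 494 CPM and the 6 choroid plexus markers to 2.27 to 475 and 10.3 to 751 CPM. The choroid plexus sums had medians of 267 CPM in Slc11a2KD APP/PS1 and 50.7 CPM in Slc11a2KD WT, and 0 of the 6 markers passed. The 6 B and plasma cell markers summed to 11.4 to 180 and 19.5 to 37.4 CPM in these groups. The 5 markers of border-associated macrophages summed to 62.4 to 153 CPM in Control APP/PS1 and 160 to 342 CPM in Control WT, and to 85.2 to 145 and 166 to 425 CPM in the Slc11a2KD groups, with no overlap in either pair and 4 and 3 of the 5 lower past the threshold. The 4 monocyte markers summed to 8.83 to 28.7 and 22.2 to 80.3 CPM in the Control and to 14.4 to 65.0 and 21.8 to 74.5 CPM in the Slc11a2KD groups, APP/PS1 first, with 2 and 0 lower. For the 4 oligodendrocyte markers the sums were 283 to 813 and 618 to 2493 CPM, and 432 to 1093 and 845 to 3291 CPM, with 3 and 1 lower. The 5 endothelial and mural markers had 81.2 to 105 and 125 to 263 CPM, and 69.9 to 114 and 111 to 219 CPM, with 2 lower in both and 1 higher in the Control comparison. The part of these cells in the values of the members was not tested.

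Slc11a2KD mice were compared with Control mice within each genotype. Effects of the knockdown, of tamoxifen and of whatever the library numbers stand for cannot be told apart in these comparisons. Between Slc11a2KD WT and Control WT, 0 members passed an adjusted p of 0.05 (edgeR) in either direction, as did 0 of all genes (0%). DESeq2 also called 0 members, where 0.0321% of all genes were higher and 0.0214% lower, and limma voom 0, where 0.00533% of all genes were higher. At an unadjusted p under 0.05, 1 member was higher, *Stmn1* (2.13%, against 3.06% of all genes), and 0 were lower (2.86%). By ranges, 1 member did not overlap between the groups, *Mcm3*, a subunit of the MCM helicase, which was higher (2.13%, against 0.144% of all genes), and 0 were lower (0.0533%). *Mcm3* had 51.6 to 64.2 CPM (median 57.5) in Control WT and 72.8, 70.7, 66.02, 69.6 and 69.5 CPM in Slc11a2KD WT (log2 fold change 0.27 ± 0.15 SE, adjusted p of 1 in edgeR). *Stmn1* had 30.7 to 67.3 CPM (median 36.3) in Control WT and 42.1, 49.5, 38.1, 67.7 and 104 CPM in Slc11a2KD WT, with library 22 above and library 19 just above the Control WT range (log2 fold change 0.51 ± 0.24 SE, adjusted p of 0.797 in edgeR). The G2/M median was 0.26, or 0.16 with the length and GC trend removed, and the S phase median 0.15, over a median of 0.01 for all genes. Of the members with a mean of at least 1 CPM, *Ccnb2* had the highest log2 fold change, 0.65 (standard error 0.44), and *Plk1*, a kinase of mitotic entry and exit, the lowest, -0.75 (standard error 0.56). *Plk1* had 0.692 to 2.33 CPM (median 1.68) in Control WT and 2.100, 0.332, 0.676, 1.23 and 0.495 CPM in Slc11a2KD WT, where libraries 2, 3 and 22 were below all Control WT libraries. *Mki67*, *Top2a*, *Pcna*, *Mcm2* and *Ccnd1* stood at 0.27, 0.06, 0.08, 0.15 and 0.11, each within 1 standard error of 0.

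Between Slc11a2KD APP/PS1 and Control APP/PS1, 0 members passed the adjusted threshold in edgeR, as did 0% of all genes, and 0 in limma voom, where 0.0107% of all genes were lower. DESeq2 gave an adjusted p to 4575 of 18759 genes, and to 7 members, *Ccnd1*, *Mcm3*, *Mcm5*, *Pcna*, *Rrm1*, *Stmn1* and *Hmgb2*. Of these 7 it called 0, where 9.81% of the genes with an adjusted p were higher and 2.86% lower, and the other 40 members have no DESeq2 call. At an unadjusted p under 0.05, edgeR had 4 members higher (8.51%, against 10.8% of all genes) and 3 lower (6.38%, against 9.74%), and the smallest adjusted p was 0.205, for *Mcm4* (-0.51, standard error 0.19). Without library 4, *Pcna* was called higher and *Mcm4* lower, 2.13% of the members each, against 7.34% and 9.07% of all genes. The G2/M median was -0.36, with 8 of 26 above 0, and the S phase median -0.00, with 9 of 19 above 0, against 0.01 over all genes. With the length and GC trend removed the G2/M median was -0.22, with 10 of 26 above 0. Spearman's correlation of fold change with length was -0.56 across the members and -0.36 across all genes in this comparison. *Top2a* was the lowest of the members with a mean of at least 1 CPM, from 0.982 to 8.66 CPM (median 5.89) in Control APP/PS1 to 4.797, 2.58, 4.16, 2.08 and 0 CPM in Slc11a2KD APP/PS1 (log2 fold change -0.97 ± 0.71 SE, adjusted p of 0.451 in edgeR). All Slc11a2KD APP/PS1 libraries but 23 lay within the Control APP/PS1 range. *Ccne2*, a cyclin E, was the highest, with 1.23 to 2.403 CPM (median 1.801) and 3.35, 1.995, 4.16, 3.02 and 2.803 CPM (log2 fold change 0.77 ± 0.41 SE, adjusted p of 0.284 in edgeR). *Pcna* and *Tyms* stood at 0.38 and 0.52 (adjusted p = 0.238 and 0.226, edgeR), with *Pcna* at 0.02 once the length and GC trend was removed, and *Mki67*, *Mcm2* and *Ccnd1* at -0.97, -0.27 and -0.20. This comparison shares its Control APP/PS1 libraries with the first one, so the values of the 2 are not independent. Members under 2 kb were above 0 in 8 of 9 cases and those over 4 kb in 3 of 17.

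The difference between the 2 comparisons of APP/PS1 with WT was tested as the interaction. No member passed (0 higher and 0 lower, with 0% of all genes, in edgeR). DESeq2 called 0 members, where 0.0963% of all genes were higher and 0.0375% lower, and limma voom 0, where 0.00533% of all genes were lower. At an unadjusted p under 0.05, 0 members were above 0 (4.86% of all genes) and 2 below (4.26%, against 4.22%), *Prc1* and *Mcm6*, named after their values were seen. *Cdk1* was called in both comparisons. The calls of *Ccna2* and *Ccnb2* in one comparison and of *Tyms*, *Pcna*, *Ccnb1*, *Aurkb*, *Mcm2*, *Mcm4* and *Ccnd1* in the other were not shown to differ between Control and Slc11a2KD mice. The median interaction was -0.52 for G2/M and -0.10 for S phase members, over -0.01 for all genes. *Prc1* had the lowest value, -1.51 (standard error 0.61, adjusted p = 0.544, edgeR). It had 2.902, 3.75, 1.87, 0.991 and 2.52 CPM in Slc11a2KD WT and 1.96, 2.68, 1.92, 0.254 and 1.75 CPM in Slc11a2KD APP/PS1, with library 21 the lowest of all. *Ccnb1* had the highest, 0.69 (standard error 0.56, adjusted p = 0.626). *Mki67*, *Top2a*, *Pcna*, *Mcm2* and *Ccnd1* were at -1.24, -1.03, 0.29, -0.42 and -0.30. All 6 MCM genes were below 0, from -0.74 to -0.20, but *Mcm5* was at 0.08 with the length and GC trend removed, a fit in which the G2/M median was -0.43.

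Genes around the members in the cell cycle were taken from 6 lists, 97 genes in all that were tested. In Control APP/PS1 against Control WT, 5 of them were higher and 2 lower (5.15% and 2.06%, against 5.99% and 4.48% of all genes). In Slc11a2KD APP/PS1 against Slc11a2KD WT 5 were higher and 6 lower (5.15% and 6.19%, against 9.77% and 6.41%), so the shares were near or below those of all genes. None passed in the comparisons of knockdown with Control or in the interaction. Of the 8 CDK inhibitors, 1 was higher in the first comparison and 3 higher and 1 lower in the second. *Cdkn2a*, which encodes the CDK4 inhibitor p16INK4a and the p53 activator ARF, was higher in both. It had 0.139 to 4.17 CPM (median 1.21) in Control WT and 4.11 to 11.6 CPM (median 6.68) in Control APP/PS1, where library 14 of Control WT just reached the second range (log2 fold change 2.20 ± 0.50 SE, adjusted p of 0.00447 in edgeR). In Slc11a2KD WT it had 1.298, 1.94, 1.09, 3.19 and 2.57 CPM and in Slc11a2KD APP/PS1 5.81, 8.37, 12.6, 8.52 and 4.71 CPM, with no overlap (log2 fold change 1.99 ± 0.54 SE, adjusted p of 0.0137 in edgeR). The gene counts do not separate its 2 products. *Cdkn2c* and *Cdkn2d*, also inhibitors of CDK4 and CDK6, rose by 0.68 and 0.83 on the log2 scale in the second comparison (adjusted p = 0.0297 and 0.0259, edgeR), and *Cdkn1b* was at -0.28 (adjusted p = 0.0419).

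Of 10 G1 cyclins, CDKs and pocket proteins, *Cdk6* and *Cks1b* were higher and *Ccnd2* lower in Control APP/PS1. *Ccnd2*, cyclin D2, had 3.900 to 9.49 CPM (median 6.28) in Control WT and 1.91 to 4.305 CPM (median 2.26) in Control APP/PS1, so the lowest of the first overlapped the highest of the second (log2 fold change -1.38 ± 0.39 SE, adjusted p of 0.0238 in edgeR). *Cdk6*, a partner of D-type cyclins, had a log2 fold change of 0.60 (adjusted p = 0.0214, edgeR). *Cks1b*, a small CDK subunit, was also higher in the Slc11a2KD comparison, at 0.85 and 0.85 (adjusted p = 0.0304 and 0.0388), and *Rbl1* (p107) was lower there, at -0.53 (adjusted p = 0.0297). Of 15 further E2F and MuvB factors, the repressor *E2f6* was higher in both, at 0.67 and 0.50 (adjusted p = 0.00164 and 0.0214), and *E2f3* was lower in the Slc11a2KD comparison, at -1.01 (adjusted p = 0.0057).

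The 25 further replication genes had 0 calls in either comparison, with medians of 0.35 and 0.13 and 22 and 17 above 0. Among 25 further mitosis genes, *Cdca5*, the cohesin protector sororin, was higher in Control APP/PS1 (1.82, adjusted p = 0.0412, edgeR) and *Espl1*, separase, lower in both (-0.51 and -0.95, adjusted p = 0.0175 and 0.000156). *Anln* was lower in the Slc11a2KD comparison (-1.13, adjusted p = 0.044). The medians of this list were 0.45 and 0.17. Of 14 checkpoint genes and p53 targets, *Trp53* itself was lower in Slc11a2KD APP/PS1 than in Slc11a2KD WT (-0.51, adjusted p = 0.0118), and *Cdkn1a*, a p53 target counted with the inhibitors, had 0.96 and 0.61 with adjusted p-values of 0.185 and 0.428.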

How the data were processed

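CD11b+ cells were magnetically sorted from the hippocampi of female mice, and poly(A) RNA was sequenced in pairs of reads. Per the labels and the study's methods, the authors trimmed reads with Trim Galore 0.6.7, aligned them to mm39 with STAR and deposited raw counts per gene, which were used here as counts. A second table, normalized counts, was not used. Samples were grouped by their labels. The study's text removes an outlier of the Control APP/PS1 group and points for it to a supplementary figure, not used here. Library 10 was left out because it alone of that group is missing from the study's heat map. The study describes the samples of a group as biological replicates.

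A gene was tested if 3 or more of the 22 libraries had 5 or more counts (18759 genes) with edgeR 4.0.16 under R 4.3.3 (TMM scaling, quasi-likelihood test, all 4 groups in 1 fit), with adjustment by Benjamini and Hochberg over all of them and a threshold of 0.05. The standard error is the log2 fold change divided by the square root of F. List means are of log2 CPM (prior count 2), and CPM was scaled by TMM over all 23 libraries. Alternatives were DESeq2 1.42.0, limma voom 3.58.1 with sample weights, DESeq2 size factors, no filter or at least 10 counts in every sample, an absolute log2 fold change above 1, library 10 kept, only the groups compared, libraries 18 to 23 as a covariate or alone, and each library left out. A correction for transcript length and GC content (spline trends per library) and the omission of libraries 4 and 21 were added after the data were seen. The edgeR, DESeq2, limma voom and length-corrected fits were tested on simulated data. Transcript lengths were those of GENCODE M39 (GRCm39), with 18731 of 18876 genes matched.

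The members and lists were chosen with earlier results of these data known. The genes named with values were members past the threshold in any comparison, *Mki67*, *Top2a*, *Pcna*, *Mcm2* and *Ccnd1*, and, per comparison, the highest and the lowest fold change of the members that averaged at least 1 CPM. Members named beyond these, and *Birc5*, were picked after their values were seen. Other members are given in groups by their fold changes. All tests were two-sided.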

Additional observations from a re-analysis of the deposited data

Results flagged for a closer look

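Among 76 groups of libraries tested, the 4 groups for each of 17 named members and for both lists, 6 held a library far from the rest by Dixon's ratio on log2 CPM, and chance alone flags about 1 in 20 groups. In Control APP/PS1, *Cdk1* was highest in library 13, at 4.52 where the others ran from 3.61 to 3.82, and *Top2a* was lowest in library 16, at 0.04 where the others ran from 2.13 to 3.12. In Slc11a2KD APP/PS1, *Top2a* was lowest in library 23, at -4.39, where it had no count, against 1.09 to 2.28. Library 21 of that group was lowest for *Mcm2*, at 2.55 against 3.71 to 3.92, and for *Prc1*, at -1.73 against 0.85 to 1.45. In Control WT, *Ccnd1* was lowest in library 6, at 7.61 where the highest of the others had 8.17.

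Library 10, the Control APP/PS1 library that entered no comparison, had an S phase mean of 3.70 and a G2/M mean of 1.53, both above every Control WT library (2.71 to 3.18 and 0.55 to 1.02).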

How the results depend on the processing

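In Control APP/PS1 against Control WT, 3 members were called, and 6 with DESeq2 and 12 with limma voom. Of the others, 8 were called with library 10 kept (all higher, 17.02% against 6.59% of all genes), 7 with only these groups (all higher, 14.89% against 11.3%), 5 with libraries 18 to 23 as a covariate (all higher, 10.64% against 8.42%), 5 with at least 10 counts in every sample (4 of 34 higher, 11.76% against 8.73%) and 1 with an absolute log2 fold change above 1 (2.13% against 2.80%). No Control library carried 18 to 23, so that covariate could not adjust this comparison. The fold changes of the named members stayed as they were, and only the estimate of the spread changed. With each library left out the number called ran from 1 to 5, where 8.35% to 10.5% of all genes were called (1 without 9, 12 or 13, and 5 without 16). In Slc11a2KD APP/PS1 against Slc11a2KD WT, 8 were called, and 3 with that covariate or with only these groups (2 higher, 4.26% against 4.33% of all genes in the latter), 0 within libraries 18 to 23 and 4 above a log2 fold change of 1 (8.51% against 3.91%), and from 4 to 11 with each library left out, where 10.6% to 25.6% of all genes were called (4 without 2, 5 without 21 or 23). Only 6 libraries remained within 18 to 23. Slc11a2KD APP/PS1 against Control APP/PS1 had 0 calls and 0 to 2 with each library left out (2 without 4), and DESeq2 gave an adjusted p to 7 members in it. Slc11a2KD WT against Control WT and the interaction had 0 calls in every alternative run.

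The S phase median went from -0.12 (without library 22) to 0.29 in Slc11a2KD APP/PS1 against Slc11a2KD WT, and from -0.29 to 0.17 (without library 19) in the interaction. No other list median moved by more than the spread between libraries.

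Signs turned for members that were not called. *Mki67* in Control APP/PS1 was -0.41 with limma voom, -0.09 with library 10 kept, -0.19 with the length and GC trend removed, and -0.54 to 0.42 with each library left out. *Top2a* in Slc11a2KD APP/PS1 against Slc11a2KD WT was 0.51 with the covariate, 0.64 within libraries 18 to 23, 0.10 with the length trend removed, and -0.42 to 0.38 with each library left out. In Slc11a2KD WT against Control WT, leaving out libraries gave *Mki67* -0.38 to 0.56, *Top2a* -0.44 to 0.33 and *Pcna* -0.15 to 0.19, and *Pcna* was -0.09 with limma voom and -0.28 with the covariate. With the covariate, *Top2a* was 0.03 and *Pcna* -0.30 in Slc11a2KD APP/PS1 against Control APP/PS1, and *Pcna* -0.02 in the interaction. That covariate rests on the Slc11a2KD libraries alone. The cause of these shifts was not tested. No paired analysis was possible because the library numbers are unique across the groups.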

Other observations

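Library 10 had 24 of the 47 members above and 7 below every Control WT library (51.1% and 14.9%), against 26.7% and 23.9% of all 18759 genes tested. Its *Pcna* was 405 CPM, its *Cdk1* 32.5 CPM and its *Tyms* 28.6 CPM, while *Mki67* had no count and *Mcm2* had 11.1 CPM. Slc11a2KD APP/PS1 library 21, named after its values were seen, had 333 CPM of *Pcna*, 34.7 of *Cdk1*, 26.5 of *Tyms* and 5.796 of *Mcm2*.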
